A study of Mus musculus with 12 samples.

Results

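The genes described here are 40 named members of the autophagy and lysosome pathway in mouse cells, out of 54100 genes listed in all 12 count files of the study. They are a list of names grouped by function, chosen with earlier results of these data known. The autophagy arm holds 19 of them, namely cargo receptors, the Atg8 family and the proteins that start and build the autophagosome. The lysosomal arm holds 19 others, namely proteases, glycosidases, cholesterol exporters, membrane proteins and proton pump subunits. The last 2 members are the transcription factors Tfeb and Tfe3. All 40 were found in every file, and all 40 passed the filter on low counts in each comparison.

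The study changed CK1α, the kinase encoded by Csnk1a1 (spelled CK1a in the labels), in 3 ways and sequenced polyadenylated RNA, with 2 libraries in each of 6 groups. SSTC3, a small molecule described as a CK1α activator, was set against DMSO, its solvent, in cells labelled BMDM (bone marrow-derived macrophages). Overexpression of CK1a was set against an overexpression control, and knockdown of CK1a, named siRNA in the titles, against a knockdown control, both in cells labelled MEF (mouse embryonic fibroblasts). The series title places CK1α in cGAS-STING signalling, the response to DNA in the cytosol. All libraries are labelled C57BL/6J. A knockout of TREX is labelled in both the SSTC3 and the DMSO cells, as TREX1-KO and TREX2-KO for the SSTC3 libraries and TREX3-KO and TREX4-KO for the DMSO libraries. As labelled, the TREX number thus differs between SSTC3 and DMSO libraries, and its effect cannot be told apart from that of SSTC3. The sources used here do not give doses, times, the construct, the siRNA or the number of clones or animals. Nothing in the labels says that replicates were separate cultures, so the p-values rest on variation from library to library that may be only technical. In bulk RNA, fewer cells of a type and less RNA per cell cannot be told apart.

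In autophagy, cytoplasmic cargo is enclosed in a membrane sac, the autophagosome, which fuses with a lysosome. Cargo receptors such as p62 bind the cargo on one side and lipid-anchored Atg8 proteins such as LC3 on the other, and acid hydrolases degrade it after a vacuolar proton pump has acidified the lysosome. TFEB and TFE3, transcription factors held in the cytosol by mTORC1 when nutrients are plentiful, are known to bind an E-box with the core CACGTG in the promoters of many lysosomal genes.

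Promoter windows are shown first, because that E-box is the sequence through which lysosomal genes are known to be regulated together. RefSeq windows (GRCm38.p6) of 250 bases before to 50 bases after the start matched 33 of the 40 members, with 39 windows in all, since some genes have several starts. Map1lc3a, Becn1, Atg12, Atg16l1, Ctsb, Npc1 and Atp6v1h had no window. The extended motif TCACGTGA, which reads the same on both strands and contains CACGTG, was present in 6 of the 39 windows (15.4%), against 0.974% of all 32851 mouse windows. These 6 were among the 17 lysosomal windows (35.3%), while none of the 17 autophagy windows held it. In the other lysosomal and pump genes counted further on, 6 of 68 windows held it (8.82%), so the share in the 17 is not that of lysosomal genes in general. The shorter CACGTG was present in 52.9% of lysosomal and 17.6% of autophagy windows, against 20.6% of the windows of the other lysosomal and pump genes and 7.15% of all windows. A match is a description of the letters and not a measured binding site. The 6 windows are given in part, 5′ to 3′ on the strand of the gene, with TCACGTGA in capitals. They lie at chr8:105566061-105566180 on the minus strand (Atp6v0d1), chr16:44139260-44139401 on the minus strand (Atp6v1a) and chr2:164833665-164833784 on the plus strand (Ctsa). The others lie at chr7:142387828-142387947 on the minus strand (Ctsd), chrX:134601006-134601243 on the minus strand (Gla) and chr8:3500399-3500518 on the plus strand (Mcoln1).
Atp6v0d1: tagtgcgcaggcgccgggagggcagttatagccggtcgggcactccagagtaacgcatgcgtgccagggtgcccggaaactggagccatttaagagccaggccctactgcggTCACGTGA
Atp6v1a: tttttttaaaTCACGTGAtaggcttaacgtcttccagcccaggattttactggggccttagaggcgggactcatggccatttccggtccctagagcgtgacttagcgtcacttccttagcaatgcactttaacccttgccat
Ctsa: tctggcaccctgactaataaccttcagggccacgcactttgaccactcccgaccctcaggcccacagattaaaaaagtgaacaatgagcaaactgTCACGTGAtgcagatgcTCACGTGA
Ctsd: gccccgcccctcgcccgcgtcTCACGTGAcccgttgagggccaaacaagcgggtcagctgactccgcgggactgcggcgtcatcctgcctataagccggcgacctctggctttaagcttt
Gla: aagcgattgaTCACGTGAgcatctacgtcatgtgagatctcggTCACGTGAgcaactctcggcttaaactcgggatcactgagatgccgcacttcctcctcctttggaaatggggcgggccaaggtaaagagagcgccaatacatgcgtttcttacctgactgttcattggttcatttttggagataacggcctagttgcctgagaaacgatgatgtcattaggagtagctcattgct
Mcoln1: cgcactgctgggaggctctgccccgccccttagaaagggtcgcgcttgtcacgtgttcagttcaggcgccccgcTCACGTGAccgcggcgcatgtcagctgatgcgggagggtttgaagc
Ctsa and Gla each hold the motif in 2 places, and in Atp6v0d1 it lies across the start itself. The 6 genes did not move together. With SSTC3, Gla, Ctsa, Ctsd and Atp6v0d1 rose, Atp6v1a fell and Mcoln1 did not pass the test.

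Library totals ran from 16063627 to 19427506 counts. The targeted transcript checked the labels of the knockdown only. Csnk1a1 had 171.5 and 169.2 CPM (counts per 1000000 counts of the library) in CK1α knockdown libraries, against 325 and 354.1 CPM in their controls, which is a log2 difference of −0.96 ± 0.047, SE, adjusted p = 2.88e-27. In the libraries labelled CK1a overexpression it stood at 229.3 and 244.4 CPM, next to 237.8 and 234.7 CPM in their controls (−0.01 ± 0.037, SE, adjusted p = 0.901) and thus no rise in this transcript. SSTC3 libraries held 426.4 and 424 CPM, next to 413.2 and 430 CPM with DMSO (0.068 ± 0.037, SE, adjusted p = 0.111). Macrophage identity was not seen in the libraries labelled BMDM. The sum of 21 macrophage markers was 13.6 and 12.68 CPM with SSTC3 and 10.56 and 10.39 CPM with DMSO, with 10 to 14 of the 21 at 0, among them Adgre1, Itgam, the C1q genes and Tyrobp in each library. The overexpression set had sums of 21.87 to 23.85 CPM. In the knockdown set the sums were 324.1 and 326.6 CPM in knockdown libraries and 277 and 270.3 CPM in their controls. Cd68, itself a lysosomal membrane protein, made up 296 and 294.6 CPM of these in knockdown libraries and 252 and 246 CPM in their controls. The sum of 14 fibroblast markers was 7571 and 7616 CPM with SSTC3 and 8963 and 8666 CPM with DMSO. It was 2600 and 2584 CPM in overexpression libraries and 3116 and 3089 CPM in their controls, and 4408 and 4518 CPM in knockdown libraries and 3777 and 3713 CPM in their controls. Of the 14, 0 or 1 stood at 0 in SSTC3 and DMSO libraries, and 2 or 3 in each other library. Lum was at 0 in all libraries but DMSO replicate 1. Dcn was at 0 throughout the overexpression and knockdown sets, except in CK1α overexpression replicate 2. The fibroblast sums were thus lower with SSTC3 and overexpression and higher with knockdown, and the part of these markers in the results given here was not tested.

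With SSTC3, 27 of the 40 genes rose and 5 fell at an adjusted p under 0.05 (edgeR's quasi-likelihood test, adjusted over all genes tested), and 8 did not pass. Among all 14151 genes tested, 27.1% were higher and 26.5% lower. The median log2 fold change of the 40 was 0.30, against 0.01 over all genes. In the autophagy arm 14 rose and 2 fell of 19 (median 0.33), and in the lysosomal arm 12 rose and 3 fell of 19 (median 0.19). Without SSTC3 replicate 1, 3 of the 40 were lower. Where DESeq2 ended a call of a gene in any comparison, its adjusted p stands beside that of edgeR.

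CK1α knockdown gave the opposite balance, with 5 of 40 higher, 23 lower and 12 not passing, against 28.3% higher and 26.4% lower among 14832 genes. The median of the 40 was −0.19, against −0.01 over all genes. Here the lysosomal arm had 2 higher and 13 lower of 19 (median −0.30), and the autophagy arm 3 higher and 9 lower of 19 (median −0.14). Without CK1α knockdown replicate 2, 3 of the 40 were higher.

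Overexpression libraries differed less from their controls, with 13 of 40 higher, 3 lower and 24 not passing, against 5.78% higher and 7.57% lower among 13958 genes. The median of the 40 was 0.08, against 0.00013 over all genes. Of the 13 that were higher, 9 belong to the lysosomal arm, in which 2 of 19 were lower. In the autophagy arm 4 were higher and 1 lower of 19. These calls depended on the test, since DESeq2 called 5 higher and 1 lower, and 8 were higher with edgeR without overexpression control replicate 1. DESeq2 gave no adjusted p for Atg14, Gla, Neu1 and Atg9b in this comparison.

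**Figure D1:**
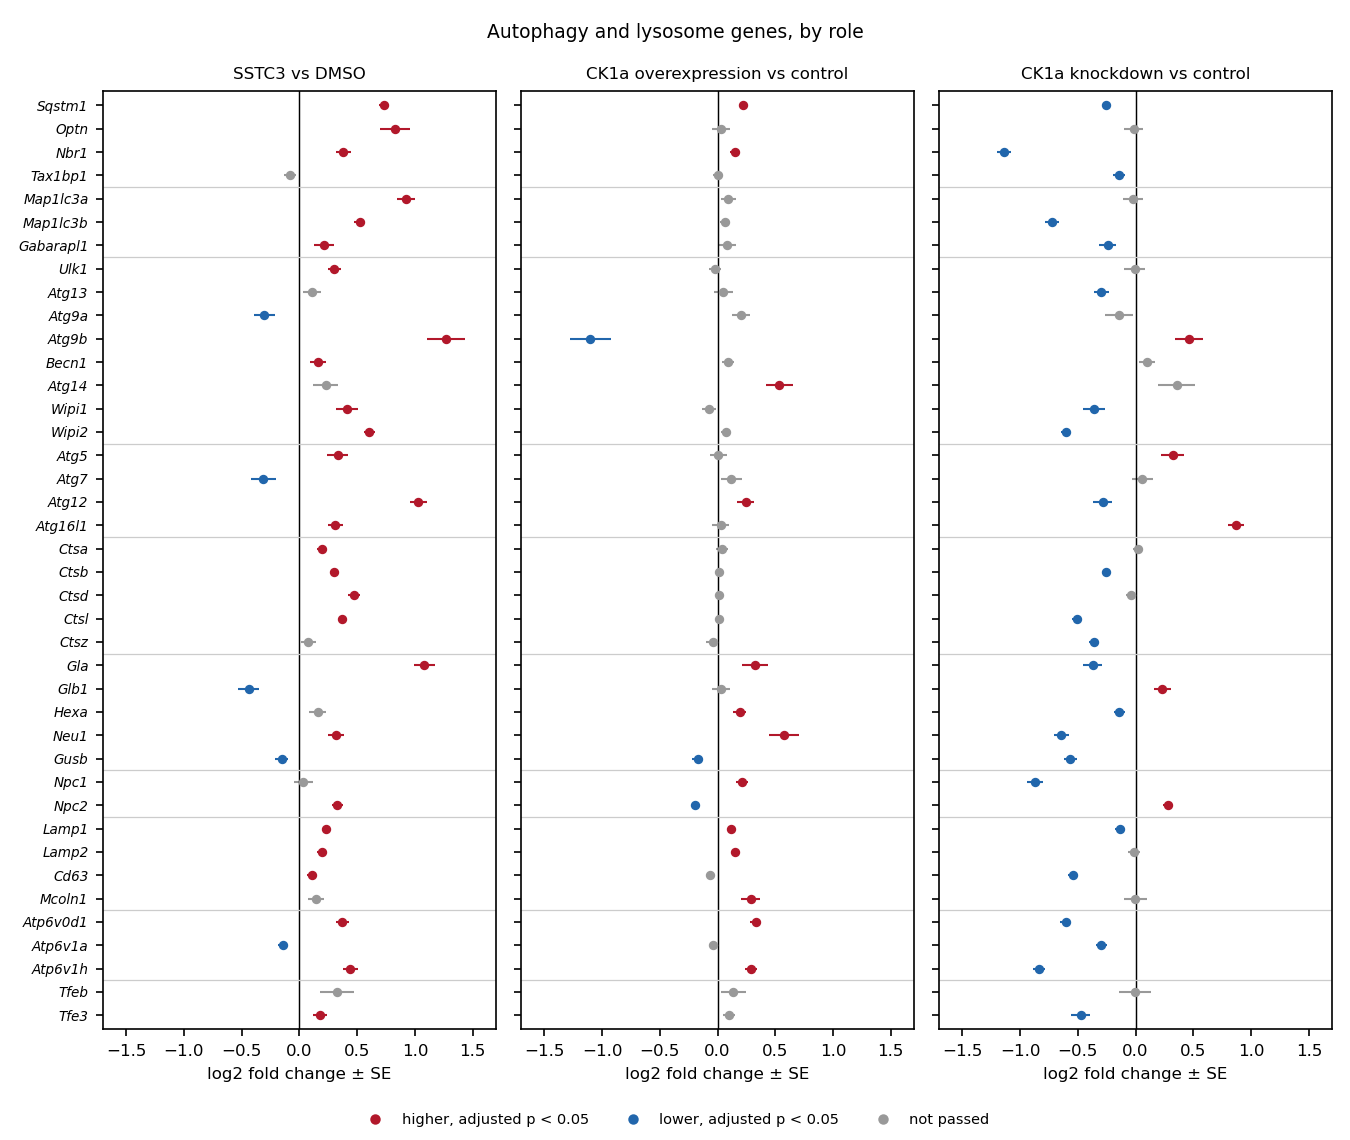
Log2 fold change of each of the 40 genes in the 3 comparisons (x axis, with SE; n = 2 libraries per group), ordered by role from cargo receptors to transcription factors with grey lines between roles. Red points passed the test as higher, blue points as lower and grey points did not pass. Most points lie right of 0 for SSTC3 (27 higher, 5 lower), most called points lie left of 0 for CK1α knockdown (5 higher, 23 lower), and most points are grey for overexpression (24 of 40).

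Cargo receptors link ubiquitinated proteins, organelles or bacteria to Atg8 proteins. Sqstm1 (ENSMUSG00000015837, mm10 chromosome 11, 50199366 to 50210827, minus strand) encodes p62, the receptor for ubiquitinated aggregates. It had 426.3 and 441.4 CPM with SSTC3, against 277 and 267.3 CPM with DMSO, a log2 fold change of 0.73 ± 0.038, SE, adjusted p = 4.64e-49. CK1α overexpression libraries had 538.2 and 528.8 CPM, next to 461.7 and 443 CPM in their controls, a change of 0.22 ± 0.029, SE, adjusted p = 7.48e-08. Knockdown libraries had 1317 and 1317 CPM, next to 1636 and 1582 CPM in their controls, a change of −0.25 ± 0.038, SE, adjusted p = 4.89e-08. In each set the groups were separate, with SSTC3 and overexpression above their controls and knockdown below. Nbr1 (ENSMUSG00000017119, mm10 chromosome 11, 101552149 to 101581951, plus strand), a receptor related to p62, went the same 3 ways with a different balance. It had 75 and 77.9 CPM with SSTC3, against 62.6 and 59.4 CPM with DMSO (0.38 ± 0.063, SE, adjusted p = 3.15e-08). In overexpression libraries there were 162.8 and 159.7 CPM, next to 143.8 and 144.2 CPM in their controls (0.15 ± 0.041, SE, adjusted p = 0.00877 and 0.0971 with DESeq2). Knockdown libraries had 66.1 and 67.1 CPM, next to 149.2 and 151.8 CPM in their controls, and the change of −1.14 ± 0.057, SE, adjusted p = 1.01e-26 was the lowest among the 40. So the knockdown difference of Nbr1 exceeded that of Sqstm1, while the SSTC3 difference of Sqstm1 exceeded that of Nbr1. Optn encodes optineurin, a receptor for mitochondria and bacteria. It had 18.6 and 16.7 CPM with SSTC3, against 11.1 and 9.6 CPM with DMSO, a change of 0.82 ± 0.13, SE, adjusted p = 3.82e-09. In the overexpression set there were 37.7 and 39.6 CPM in overexpression libraries, against 38.6 and 36.4 CPM in their controls (0.028 ± 0.079, SE, adjusted p = 0.87), and in the knockdown set 44.6 and 53.6 CPM in knockdown libraries, against 49.3 and 52.5 CPM in their controls (−0.018 ± 0.079, SE, adjusted p = 0.871). Optn thus rose with SSTC3, and its groups overlapped in the other 2 sets. Tax1bp1, also a receptor for ubiquitinated cargo, had 101.1 and 92.3 CPM with SSTC3, against 103.9 and 108.8 CPM with DMSO (−0.082 ± 0.055, SE, adjusted p = 0.205), and 171.5 and 181.4 CPM in overexpression libraries, against 173.1 and 175.4 CPM in their controls (0.0044 ± 0.04, SE, adjusted p = 0.965). In knockdown libraries it had 189.7 and 193.4 CPM, next to 203.4 and 229.8 CPM in their controls (−0.14 ± 0.05, SE, adjusted p = 0.0122 and 0.12 with DESeq2). Among the 3 comparisons Tax1bp1 passed as lower by knockdown alone. That call did not hold without CK1α knockdown replicate 1, CK1α knockdown replicate 2 or knockdown control replicate 2 (changes from −0.16 to −0.053). In the fit of all 12 libraries, its knockdown effect did not differ from its SSTC3 effect (0.091 ± 0.071, SE, adjusted p = 0.324) but did from its overexpression effect (0.18 ± 0.068, SE, adjusted p = 0.03). When libraries were scaled by their totals alone, it passed as lower with SSTC3 too (−0.14, adjusted p = 0.0262). The Nbr1 call in overexpression libraries did not hold without CK1α overexpression replicate 1 or overexpression control replicate 1 (adjusted p from 0.0601 to 0.064). Of the exon bases of Sqstm1, 17.28% are shared with Mrnip on the other strand, and without the strand setting the reads of such overlapping genes cannot be told apart.

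**Figure D2:**
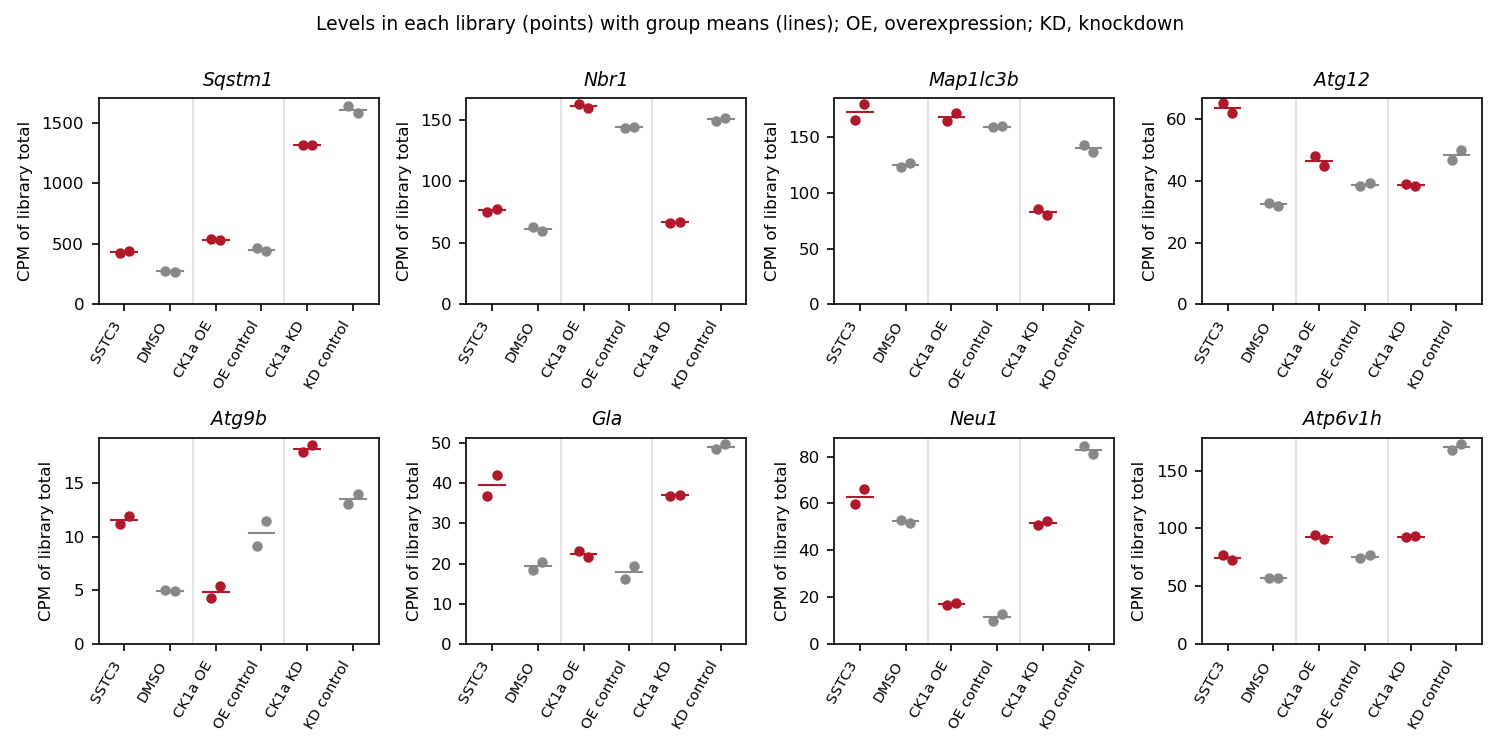
CPM of the library total of 8 of the genes in each of the 12 libraries (points; lines are the means of the 2 libraries of a group), with SSTC3, CK1α overexpression (OE) and CK1α knockdown (KD) each left of its control and y axes starting at 0. The gap between groups is wide for Nbr1 with knockdown, at 66.1 and 67.1 CPM in knockdown libraries and 149.2 and 151.8 CPM in their controls. In the overexpression set the gap is narrow for Map1lc3b. For Atg9b it is wide, at 4.3 and 5.4 CPM in overexpression libraries and 9.1 and 11.5 CPM in their controls.

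Atg8 proteins are attached to the growing membrane and recruit both receptors and cargo. All 3 measured here rose with SSTC3, as did 27.1% of all genes, and none passed in overexpression, where 13.3% of all genes did. Map1lc3a, which encodes LC3A, had 49.5 and 53.2 CPM with SSTC3, against 28.9 and 27.5 CPM with DMSO, a change of 0.92 ± 0.08, SE, adjusted p = 8.20e-24. Its levels in the overexpression set were 59.7 and 62.7 CPM in overexpression libraries, against 54 and 59.6 CPM in their controls (0.095 ± 0.063, SE, adjusted p = 0.366), and in the knockdown set 35.4 and 35.3 CPM in knockdown libraries, against 36.1 and 37.4 CPM in their controls (−0.022 ± 0.086, SE, adjusted p = 0.852). Map1lc3a was therefore higher with SSTC3 and did not pass elsewhere. Map1lc3b (ENSMUSG00000031812, mm10 chromosome 8, 121590361 to 121598760, plus strand) encodes LC3B, the form commonly followed as a marker of autophagosomes. It had 165.3 and 180 CPM with SSTC3, against 123.4 and 126.9 CPM with DMSO (0.52 ± 0.048, SE, adjusted p = 2.02e-21). In the knockdown set it had 85.3 and 79.8 CPM in knockdown libraries, against 142.6 and 137 CPM in their controls (−0.72 ± 0.057, SE, adjusted p = 1.35e-17), and in the overexpression set 164.4 and 171.8 CPM in overexpression libraries, against 159 and 159.5 CPM in their controls (0.064 ± 0.04, SE, adjusted p = 0.326). The groups were separate in all 3 sets, but the gap in the overexpression set did not pass the test. Gabarapl1, of the GABARAP branch of the family, had 30.1 and 34.3 CPM with SSTC3, against 28.9 and 28.9 CPM with DMSO (0.21 ± 0.089, SE, adjusted p = 0.0352 and 0.287 with DESeq2). In the overexpression set it had 43.5 and 45.3 CPM in overexpression libraries, against 41.6 and 41.5 CPM in their controls (0.083 ± 0.074, SE, adjusted p = 0.524). Knockdown libraries had 51.5 and 48.7 CPM, next to 62.4 and 59.1 CPM in their controls (−0.24 ± 0.073, SE, adjusted p = 0.0036 and 0.0683 with DESeq2). For Gabarapl1, the SSTC3 call did not hold without SSTC3 replicate 2, DMSO replicate 1 or DMSO replicate 2 (adjusted p from 0.11 to 0.397), and the knockdown call did not hold without CK1α knockdown replicate 2 (−0.20, adjusted p = 0.098). It shares 28.32% of its exon bases with another gene on the other strand. The difference between the SSTC3 and the knockdown effect, fitted over all 12 libraries, was 1.27 ± 0.071 (SE, adjusted p = 3.40e-29) for Map1lc3b and 0.97 ± 0.11 (SE, adjusted p = 2.69e-12) for Map1lc3a.

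Autophagosomes start at the ULK1 kinase complex, with membrane supplied by ATG9 vesicles and the lipid PI3P made by the Beclin 1 complex. Of these 8 genes, 5 were higher and 1 lower with SSTC3, 1 was higher and 1 lower with overexpression, and 1 was higher and 3 lower with knockdown. As shares, 62.5% were higher and 12.5% lower with SSTC3, against 27.1% and 26.5% of all genes. With overexpression 12.5% were higher and 12.5% lower, against 5.78% and 7.57%, and with knockdown 12.5% and 37.5%, against 28.3% and 26.4%. Wipi2 (ENSMUSG00000029578, mm10 chromosome 5, 142627698 to 142670588, plus strand), a PI3P reader that brings the lipidation machinery to the membrane, had 173.5 and 178.8 CPM with SSTC3, against 118 and 122.8 CPM with DMSO (0.60 ± 0.048, SE, adjusted p = 3.67e-27). Its knockdown libraries had 285.7 and 292.9 CPM, next to 453.3 and 445.1 CPM in their controls (−0.60 ± 0.043, SE, adjusted p = 2.53e-19). The related Wipi1 had 29.4 and 27.8 CPM with SSTC3, against 21.5 and 23.3 CPM with DMSO (0.41 ± 0.097, SE, adjusted p = 9.91e-05), and 25 and 26.4 CPM in knockdown libraries, against 34.6 and 33.2 CPM in their controls (−0.36 ± 0.094, SE, adjusted p = 0.000754). Both PI3P readers thus rose with SSTC3 and fell with knockdown, and neither passed in overexpression (Wipi2 0.073, Wipi1 −0.074). Ulk1, the kinase itself, had 95.2 and 103.9 CPM with SSTC3, against 85.6 and 82.5 CPM with DMSO (0.30 ± 0.057, SE, adjusted p = 1.26e-06) and did not pass in the other comparisons (overexpression −0.024, knockdown −0.009). Atg13, its partner, had 67.7 and 69.8 CPM in knockdown libraries, against 87.9 and 85.2 CPM in their controls (−0.30 ± 0.064, SE, adjusted p = 5.96e-05) and did not pass with SSTC3 (0.11) or overexpression (0.051).

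The pair of ATG9 genes moved apart. Atg9b (ENSMUSG00000038295, mm10 chromosome 5, 24384181 to 24392143, minus strand) had the highest SSTC3 change of the 40, with 11.2 and 11.9 CPM with SSTC3, against 5 and 4.9 CPM with DMSO (1.27 ± 0.17, SE, adjusted p = 4.25e-12). In overexpression libraries it had 4.3 and 5.4 CPM, next to 9.1 and 11.5 CPM in their controls, and the change of −1.10 ± 0.18, SE, adjusted p = 9.77e-06 was the lowest of the 40 there. Knockdown libraries had 17.9 and 18.5 CPM, next to 13 and 14 CPM in their controls (0.46 ± 0.12, SE, adjusted p = 0.00111). Atg9b was therefore higher with SSTC3 and knockdown and lower with overexpression, from levels at or below 18.5 CPM throughout. Atg9a, the widely expressed form, had 25.6 and 29.3 CPM with SSTC3, against 37.1 and 33.3 CPM with DMSO (−0.30 ± 0.088, SE, adjusted p = 0.00179). It did not pass in overexpression (0.20) or knockdown (−0.15), and 31.79% of its exon bases are shared with another gene on the same strand. The SSTC3 call of Atg9a did not hold without SSTC3 replicate 1 or DMSO replicate 1 (adjusted p from 0.0702 to 0.108). Atg14, which directs the Beclin 1 complex to autophagy, had 20.7 and 20.9 CPM in overexpression libraries, against 14.7 and 13.8 CPM in their controls (0.54 ± 0.12, SE, adjusted p = 0.000769). It did not pass with SSTC3 (0.23) or knockdown (0.35), though the knockdown value passed without CK1α knockdown replicate 1 (0.48, adjusted p = 0.0285). Becn1 had 56.4 and 55.4 CPM with SSTC3, against 52.3 and 51.7 CPM with DMSO (0.16 ± 0.069, SE, adjusted p = 0.0415 and 0.292 with DESeq2), and the SSTC3 call did not hold without any 1 of the 4 libraries (adjusted p from 0.0924 to 0.156). It did not pass with overexpression (0.091) or knockdown (0.099), and it shares 43.93% of its exon bases with Cntd1 on the other strand.

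ATG7 activates both ATG12 and the Atg8 proteins, and the ATG12, ATG5 and ATG16L1 complex then places Atg8 on the membrane. Among these 4, SSTC3 gave 3 higher and 1 lower, overexpression 1 higher, and knockdown 2 higher and 1 lower. Over all genes, 27.1% were higher and 26.5% lower with SSTC3, and 5.78% were higher with overexpression. With knockdown 28.3% of all genes were higher and 26.4% lower. Atg12 had 65.2 and 62 CPM with SSTC3, against 32.7 and 32 CPM with DMSO, a change of 1.03 ± 0.074, SE, adjusted p = 1.25e-31. Overexpression libraries had 47.9 and 44.9 CPM, next to 38.2 and 39.4 CPM in their controls (0.24 ± 0.075, SE, adjusted p = 0.0202 and 0.192 with DESeq2), and that call did not hold without CK1α overexpression replicate 1 or overexpression control replicate 1 (adjusted p from 0.114 to 0.215). Knockdown libraries had 39.1 and 38.3 CPM, next to 46.6 and 49.9 CPM in their controls (−0.28 ± 0.08, SE, adjusted p = 0.00198 and 0.0509 with DESeq2). Atg12 thus had the pattern of Sqstm1 and Nbr1, above its control in the first 2 comparisons and below it in the third. Atg16l1 went the other way with knockdown, at 84.6 and 80.9 CPM in knockdown libraries, against 48.6 and 44.3 CPM in their controls (0.87 ± 0.07, SE, adjusted p = 3.62e-17), the highest knockdown change of the 40. It also rose with SSTC3, with 59.8 and 64.7 CPM with SSTC3, against 51.3 and 53 CPM with DMSO (0.31 ± 0.068, SE, adjusted p = 2.58e-05), and did not pass in overexpression (0.029). Atg5 had 32.9 and 32.4 CPM with SSTC3, against 24.6 and 29.3 CPM with DMSO (0.33 ± 0.09, SE, adjusted p = 0.000797 and 0.0644 with DESeq2), and 26.9 and 30.1 CPM in knockdown libraries, against 23.3 and 23.5 CPM in their controls (0.32 ± 0.10, SE, adjusted p = 0.00499 and 0.0707 with DESeq2). For Atg5, the SSTC3 call did not hold without DMSO replicate 1 (0.20, adjusted p = 0.113), and the knockdown call did not hold without CK1α knockdown replicate 2 (0.24, adjusted p = 0.136). Atg7 had 18.4 and 18.2 CPM with SSTC3, against 23.3 and 23.8 CPM with DMSO (−0.31 ± 0.11, SE, adjusted p = 0.00786 and 0.083 with DESeq2) and did not pass in the others (overexpression 0.12, knockdown 0.059). With edgeR, Atg12 was thus lower and Atg16l1 and Atg5 higher by knockdown, but DESeq2 called only Atg16l1 of these 3.

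The lysosomal proteases were among the most abundant members. With SSTC3, 4 of 5 rose and none fell, with knockdown 3 of 5 fell and none rose, and with overexpression none of the 5 passed (changes from −0.043 to 0.041). Over all genes, 27.1% rose with SSTC3, 26.4% fell with knockdown and 13.3% passed in overexpression. Ctsd encodes cathepsin D, an aspartic protease. It had 134 and 133.7 CPM with SSTC3, against 98.8 and 101.3 CPM with DMSO (0.47 ± 0.052, SE, adjusted p = 1.97e-16), and 435.3 and 440.4 CPM in knockdown libraries, against 471.5 and 449.6 CPM in their controls (−0.038 ± 0.042, SE, adjusted p = 0.474). Ctsl (ENSMUSG00000021477, mm10 chromosome 13, 64359337 to 64370890, minus strand) encodes cathepsin L, a cysteine protease. It had 366.8 and 355.2 CPM with SSTC3, against 289.1 and 291.8 CPM with DMSO (0.37 ± 0.039, SE, adjusted p = 1.67e-17), and 346.6 and 365.2 CPM in knockdown libraries, against 524.5 and 514.4 CPM in their controls (−0.51 ± 0.043, SE, adjusted p = 1.75e-16). Cathepsin L thus moved in both comparisons and cathepsin D with SSTC3 alone. Ctsb, for cathepsin B, had 240.7 and 239.3 CPM with SSTC3, against 199.6 and 204.7 CPM with DMSO (0.30 ± 0.042, SE, adjusted p = 6.11e-11). In the knockdown set it had 1135 and 1123 CPM in knockdown libraries, against 1399 and 1357 CPM in their controls (−0.25 ± 0.038, SE, adjusted p = 6.32e-08). Ctsz, for cathepsin Z, had 307.5 and 317.1 CPM in knockdown libraries, against 425.9 and 394 CPM in their controls (−0.36 ± 0.044, SE, adjusted p = 2.95e-10) and did not pass with SSTC3 (0.077). Ctsa, for the protective protein that stabilises the neuraminidase and beta-galactosidase of the lysosome, had 197.8 and 194.3 CPM with SSTC3, against 172.9 and 183.2 CPM with DMSO (0.19 ± 0.044, SE, adjusted p = 6.34e-05) and did not pass with knockdown (0.021). Ctsa, Ctsb, Ctsd and Ctsl share over 10% of their exon bases with another gene (17.37%, 12.79%, 34.37% and 26.85%), Ctsd on its own strand and the others on the opposite strand.

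Lysosomal glycosidases remove sugars from glycolipids and glycoproteins, and their deficiencies cause storage diseases. They did not move as a block with SSTC3, with 2 higher and 2 lower of 5, against 27.1% and 26.5% of all genes. Gla (ENSMUSG00000031266, mm10 chromosome X, 134588149 to 134601125, minus strand) encodes alpha-galactosidase A, lost in Fabry disease. It had 36.8 and 42 CPM with SSTC3, against 18.4 and 20.4 CPM with DMSO, a change of 1.08 ± 0.093, SE, adjusted p = 3.26e-24. Overexpression libraries had 23.1 and 21.7 CPM, next to 16.2 and 19.4 CPM in their controls (0.32 ± 0.11, SE, adjusted p = 0.044), a call that did not hold without CK1α overexpression replicate 1, CK1α overexpression replicate 2 or overexpression control replicate 1 (adjusted p from 0.0529 to 0.456). Knockdown libraries had 36.9 and 37.1 CPM, next to 48.5 and 49.6 CPM in their controls (−0.37 ± 0.08, SE, adjusted p = 6.94e-05). Gla was thus above its control with SSTC3 and overexpression and below it with knockdown. Neu1, for neuraminidase 1, had 59.6 and 66 CPM with SSTC3, against 53 and 51.8 CPM with DMSO (0.32 ± 0.068, SE, adjusted p = 1.76e-05). In overexpression libraries it had 16.8 and 17.7 CPM, next to 9.9 and 13 CPM in their controls, and the change of 0.58 ± 0.13, SE, adjusted p = 0.00147 was the highest of the 40 there, but it did not hold without overexpression control replicate 1 (0.39, adjusted p = 0.119). Knockdown libraries had 50.9 and 52.4 CPM, next to 84.3 and 80.9 CPM in their controls (−0.64 ± 0.068, SE, adjusted p = 1.25e-12). Glb1, for beta-galactosidase, went against this with 24 and 24.4 CPM with SSTC3, against 36.1 and 32 CPM with DMSO (−0.44 ± 0.091, SE, adjusted p = 1.03e-05), the lowest SSTC3 change of the 40. It had 62.1 and 65.1 CPM in knockdown libraries, against 53.8 and 57.1 CPM in their controls (0.23 ± 0.071, SE, adjusted p = 0.00416), a call that did not hold without CK1α knockdown replicate 2 (0.20, adjusted p = 0.0995), and did not pass in overexpression (0.029). Gusb, for beta-glucuronidase, was lower in all 3 comparisons, with 97.6 and 98 CPM with SSTC3, against 112.7 and 113.5 CPM with DMSO (−0.15 ± 0.054, SE, adjusted p = 0.00969). Its overexpression libraries had 117.2 and 122.2 CPM, next to 133.6 and 133.8 CPM in their controls (−0.17 ± 0.044, SE, adjusted p = 0.00494 and 0.112 with DESeq2), and its knockdown libraries 87.9 and 85.2 CPM, next to 135 and 127.4 CPM in their controls (−0.56 ± 0.057, SE, adjusted p = 2.50e-13). It was the only member lower in all 3, but its SSTC3 call did not hold without SSTC3 replicate 1 (−0.15, adjusted p = 0.061) and its overexpression call did not hold without CK1α overexpression replicate 1 (−0.14, adjusted p = 0.0618). Hexa, for the alpha subunit of beta-hexosaminidase, had 66.6 and 66.3 CPM in overexpression libraries, against 58.9 and 56.4 CPM in their controls (0.19 ± 0.06, SE, adjusted p = 0.0261 and 0.223 with DESeq2) and 191.2 and 192.9 CPM in knockdown libraries, against 223.9 and 210.7 CPM in their controls (−0.14 ± 0.048, SE, adjusted p = 0.00889 and 0.0812 with DESeq2). The overexpression call on Hexa did not hold without any 1 of the 4 libraries (adjusted p from 0.0509 to 0.201) and the knockdown call did not hold without CK1α knockdown replicate 1, CK1α knockdown replicate 2 or knockdown control replicate 1 (adjusted p from 0.0631 to 0.176). With SSTC3 it did not pass (0.16). Hexa shares 12.78% of its exon bases with Tmem202 on the other strand.

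NPC2 hands cholesterol to NPC1, which moves it out through the lysosomal membrane, and their transcripts did not move together. Npc1 had 44.4 and 44.9 CPM in knockdown libraries, against 84 and 83.8 CPM in their controls (−0.87 ± 0.069, SE, adjusted p = 1.62e-17). Overexpression libraries had 91.1 and 95.3 CPM, next to 80.1 and 79.6 CPM in their controls (0.21 ± 0.052, SE, adjusted p = 0.00343 and 0.0799 with DESeq2), and it did not pass with SSTC3, where the groups overlapped at 32.8 and 39 CPM with SSTC3, against 38.4 and 34.5 CPM with DMSO (0.034 ± 0.083, SE, adjusted p = 0.756). Npc2 went the opposite way in both fibroblast-labelled sets. It had 581.5 and 596.5 CPM in knockdown libraries, against 499.9 and 494.7 CPM in their controls (0.28 ± 0.041, SE, adjusted p = 2.93e-08), and 222.2 and 211.4 CPM in overexpression libraries, against 247.7 and 243.8 CPM in their controls (−0.19 ± 0.037, SE, adjusted p = 0.000111). With SSTC3 it had 176.7 and 173.3 CPM, next to 147.3 and 142.5 CPM with DMSO (0.33 ± 0.047, SE, adjusted p = 1.40e-10). The difference between the overexpression and the knockdown effect was 1.12 ± 0.094 (SE, adjusted p = 2.45e-18) for Npc1 and −0.44 ± 0.056 (SE, adjusted p = 1.43e-10) for Npc2.

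Of the 4 lysosomal membrane proteins, 3 passed as higher with SSTC3, as did 27.1% of all genes. Their log2 fold changes ran from 0.11 to 0.23, and Mcoln1 did not pass. Lamp1 (ENSMUSG00000031447, mm10 chromosome 8, 13159161 to 13175338, plus strand) had 850.7 and 847.4 CPM with SSTC3, against 747.2 and 757.7 CPM with DMSO (0.23 ± 0.034, SE, adjusted p = 1.03e-09). It had 601.6 and 610.5 CPM in overexpression libraries, against 564.8 and 542.7 CPM in their controls (0.12 ± 0.028, SE, adjusted p = 0.00232), and 590.4 and 587.3 CPM in knockdown libraries, against 637 and 688.6 CPM in their controls (−0.14 ± 0.041, SE, adjusted p = 0.00436). Its groups were separate each time, but the overexpression call did not hold without overexpression control replicate 2 (0.09, adjusted p = 0.116) and the knockdown call did not hold without CK1α knockdown replicate 1 or CK1α knockdown replicate 2 (adjusted p from 0.111 to 0.121). Lamp2, needed for fusion and for chaperone-mediated autophagy, had 289.7 and 271.3 CPM with SSTC3, against 248.4 and 261.2 CPM with DMSO (0.19 ± 0.041, SE, adjusted p = 1.30e-05), and 356.8 and 362.1 CPM in overexpression libraries, against 319 and 320.7 CPM in their controls (0.15 ± 0.032, SE, adjusted p = 0.000369). In the knockdown set it had 257 and 248 CPM in knockdown libraries, against 243.1 and 279.3 CPM in their controls (−0.014 ± 0.049, SE, adjusted p = 0.832), where the groups overlapped, and it passed without knockdown control replicate 1 (−0.11, adjusted p = 0.0186). Cd63, a tetraspanin of late endosomes and lysosomes, had 658.9 and 665.5 CPM in knockdown libraries, against 1037 and 940.1 CPM in their controls (−0.54 ± 0.042, SE, adjusted p = 2.16e-17). With SSTC3 its groups overlapped at 360 and 355.2 CPM with SSTC3, against 355.3 and 335.5 CPM with DMSO (0.11 ± 0.038, SE, adjusted p = 0.0132 and 0.14 with DESeq2), and the call did not hold without SSTC3 replicate 1, SSTC3 replicate 2 or DMSO replicate 2 (adjusted p from 0.0725 to 0.288). Cd63 was thus lower with knockdown without overlap, and it did not pass in overexpression (−0.064). Mcoln1, for the calcium channel TRPML1, had 39.3 and 41.7 CPM in overexpression libraries, against 33.9 and 32 CPM in their controls (0.29 ± 0.081, SE, adjusted p = 0.0114 and 0.144 with DESeq2), a call that did not hold without CK1α overexpression replicate 2 or overexpression control replicate 2 (adjusted p from 0.0908 to 0.133). It did not pass with SSTC3 (0.14) or knockdown (−0.0022).

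The vacuolar proton pump acidifies the lysosome through a membrane sector, V0, that carries protons and a cytosolic sector, V1, that splits ATP. All 3 subunits among the members fell with knockdown. Atp6v1h (ENSMUSG00000033793, mm10 chromosome 1, 5070018 to 5162529, plus strand), a V1 subunit that couples the sectors, had 92.8 and 93.2 CPM in knockdown libraries, against 168 and 172.7 CPM in their controls (−0.84 ± 0.053, SE, adjusted p = 1.04e-21). With SSTC3 it had 77 and 72.5 CPM, next to 57.5 and 57 CPM with DMSO (0.44 ± 0.064, SE, adjusted p = 3.30e-10), and in overexpression libraries 94.5 and 91.1 CPM, next to 74 and 76.6 CPM in their controls (0.29 ± 0.053, SE, adjusted p = 7.37e-05). Atp6v1h was thus above its controls with SSTC3 and overexpression and below them with knockdown, with no overlap. Atp6v0d1, the d1 subunit of V0, had 99.9 and 101.3 CPM with SSTC3, against 77.7 and 84.1 CPM with DMSO (0.37 ± 0.057, SE, adjusted p = 2.74e-09). It had 119.5 and 121.1 CPM in overexpression libraries, against 91.3 and 98.1 CPM in their controls (0.33 ± 0.048, SE, adjusted p = 1.15e-06), and 140.3 and 136.8 CPM in knockdown libraries, against 218.1 and 214.2 CPM in their controls (−0.61 ± 0.049, SE, adjusted p = 3.96e-17). It followed the same pattern as Atp6v1h. Atp6v1a, the catalytic subunit of V1, had 154 and 155.1 CPM with SSTC3, against 177.6 and 177.3 CPM with DMSO (−0.14 ± 0.046, SE, adjusted p = 0.00476), so it was lower with SSTC3 as with knockdown, where it had 194.1 and 192.8 CPM in knockdown libraries, against 239.1 and 247.5 CPM in their controls (−0.30 ± 0.046, SE, adjusted p = 1.41e-07). It did not pass in overexpression (−0.038). The other 16 pump genes were counted likewise. With SSTC3, 8 of 14 tested were higher and 1 lower. With overexpression, 5 of 15 were higher and none lower. With knockdown, 1 of 15 was higher and 11 were lower (median −0.45). The shares higher were 57.1% with SSTC3 (27.1% of all genes) and 33.3% with overexpression (5.78%), and the share lower with knockdown was 73.3% (26.4%). Atp6v1c1, a V1 subunit, had 128.8 and 120.7 CPM in knockdown libraries against 269.4 and 261.7 CPM in their controls (−1.05 ± 0.049, SE, adjusted p = 2.09e-28). Atp6v1b2, which forms the catalytic head with Atp6v1a, had 139.6 and 138.8 CPM in knockdown libraries against 269.8 and 286.9 CPM in their controls (−0.96 ± 0.048, SE, adjusted p = 6.29e-27). Atp6v1g1, of the V1 stalk, had 213.8 and 209.2 CPM in knockdown libraries against 363.4 and 358.2 CPM in their controls (−0.74 ± 0.045, SE, adjusted p = 1.01e-22). These 3 had the smallest adjusted p-values of the list and were all lower. With SSTC3, Atp6v0c, the proton-carrying ring subunit, had 123.8 and 123.1 CPM with SSTC3 against 81.4 and 74.6 CPM with DMSO (0.72 ± 0.055, SE, adjusted p = 1.23e-28). The exception by knockdown was Atp6v0a2, with 72.7 and 69.5 CPM in knockdown libraries against 48 and 51.3 CPM in their controls (0.55 ± 0.071, SE, adjusted p = 6.36e-10), which was also the only one of this list lower with SSTC3 (−0.15 ± 0.061, SE, adjusted p = 0.0307).

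**Figure D3:**
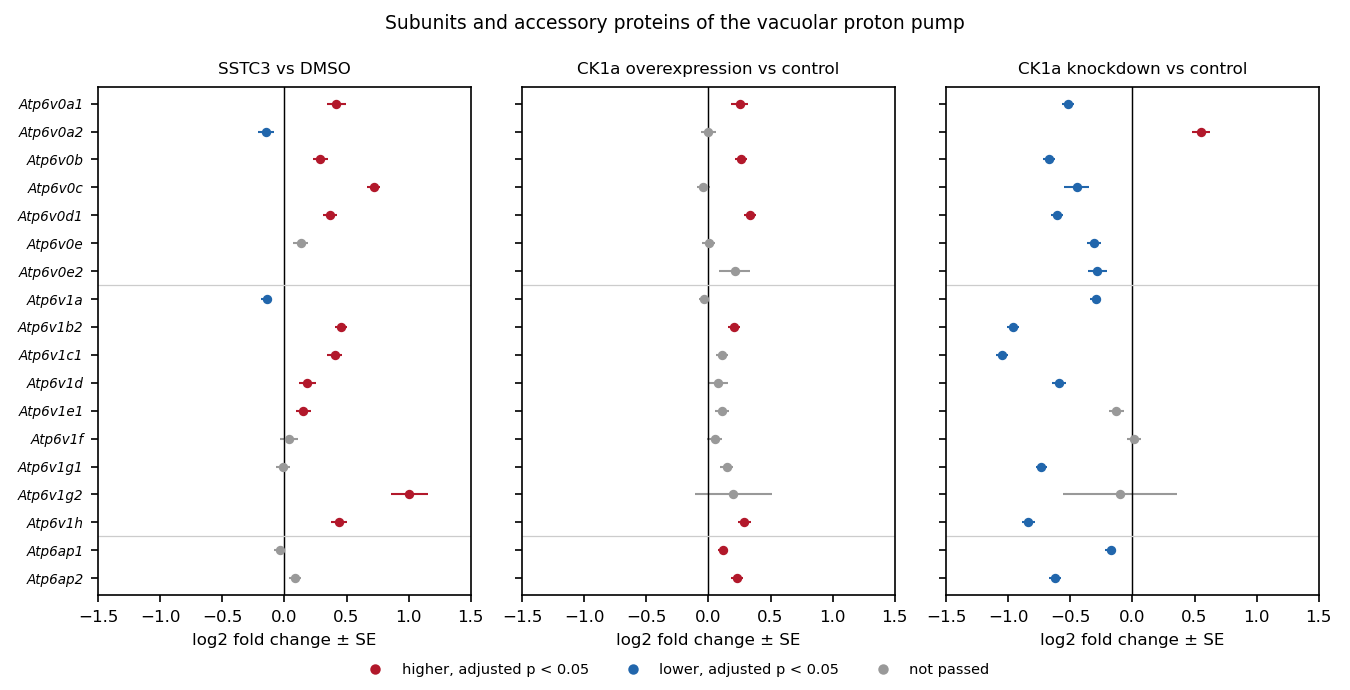
Log2 fold change (x axis, with SE; n = 2 libraries per group) of the proton pump genes that were tested, in the 3 comparisons, ordered as V0 subunits, V1 subunits and accessory proteins with grey lines between them. Red points passed as higher, blue as lower and grey did not pass; all 3 members (Atp6v0d1, Atp6v1a and Atp6v1h) and 11 of the 15 others tested lie left of 0 as blue points for CK1α knockdown.

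Of the transcription factors, Tfe3 passed in 2 comparisons and Tfeb in none. Tfeb had 11.7 and 10.7 CPM with SSTC3, against 10 and 8.6 CPM with DMSO (0.33 ± 0.15, SE, adjusted p = 0.0504), just outside the threshold. It passed with mitochondrial genes removed (adjusted p = 0.0495) and with a filter of at least 1 CPM in 2 libraries (adjusted p = 0.0438). It also passed without DMSO replicate 1 (0.43). Its groups overlapped in the other sets, with 21.5 and 23.1 CPM in overexpression libraries, against 18.1 and 22.1 CPM in their controls (0.14 ± 0.11, SE, adjusted p = 0.464) and 14.4 and 11.9 CPM in knockdown libraries, against 14.7 and 12.4 CPM in their controls (−0.0034 ± 0.14, SE, adjusted p = 0.986). No other member passed in none of the 3. Tfe3 (ENSMUSG00000000134, mm10 chromosome X, 7762560 to 7775202, plus strand) had 75.3 and 82.8 CPM with SSTC3, against 69.1 and 75.8 CPM with DMSO (0.18 ± 0.061, SE, adjusted p = 0.00781 and 0.166 with DESeq2), where its groups overlapped and the SSTC3 call did not hold without SSTC3 replicate 2 or DMSO replicate 1 (adjusted p from 0.223 to 0.268). Knockdown libraries had 37.7 and 35.9 CPM, next to 48.2 and 56.4 CPM in their controls (−0.47 ± 0.082, SE, adjusted p = 1.26e-06), below their controls with no overlap. In the overexpression set there were 79.1 and 82.5 CPM in overexpression libraries, against 76.8 and 72.6 CPM in their controls (0.099 ± 0.055, SE, adjusted p = 0.252). These are transcript levels; whether the proteins were in the nucleus was not measured. Among 23 genes that control mTORC1 and these factors, SSTC3 gave 8 higher and 8 lower of 23, overexpression 5 higher and none lower of 23, and knockdown 4 higher and 11 lower of 22. In this list 34.8% were higher and 34.8% lower with SSTC3, against 27.1% and 26.5% of all genes. With overexpression 21.7% were higher, against 5.78%, and with knockdown 18.2% were higher and 50% lower, against 28.3% and 26.4%. Sesn2 encodes sestrin 2, a stress-induced inhibitor of mTORC1. It had 172.3 and 179.3 CPM with SSTC3 against 36.9 and 34.7 CPM with DMSO (2.35 ± 0.059, SE, adjusted p = 3.95e-109), and 51.5 and 54.7 CPM in knockdown libraries against 107.6 and 109.8 CPM in their controls (adjusted p = 1.25e-21). Flcn encodes folliculin, which with FNIP1 or FNIP2 acts on the Rag GTPases to control TFEB and TFE3. It had 34.3 and 35.4 CPM in knockdown libraries against 78.8 and 82.4 CPM in their controls (−1.18 ± 0.073, SE, adjusted p = 3.83e-22), and 69.6 and 75 CPM in overexpression libraries against 64.8 and 61 CPM in their controls (0.19 ± 0.059, SE, adjusted p = 0.0256). Its partner Fnip1 had 121.1 and 114.2 CPM with SSTC3 against 62 and 71.6 CPM with DMSO (0.87 ± 0.058, SE, adjusted p = 3.22e-35), and 89.8 and 83.8 CPM in overexpression libraries against 73.4 and 67.8 CPM in their controls (0.28 ± 0.056, SE, adjusted p = 0.000205). Sesn2 was thus far above its control with SSTC3 and below it with knockdown, and Flcn was below its control with knockdown and slightly above it with overexpression. Other genes of this list went the other way. With SSTC3, Nprl2 (−1.10), Rptor (−0.64) and Mtor (−0.45) passed as lower. By knockdown, Mlst8 (1.41) and Tsc2 (0.43) passed as higher.

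Across the 3 comparisons, 11 of the 40 genes passed in all 3, 15 in 2 and 13 in 1. Among the 11728 genes tested in all 3, 6.92% passed in all 3, 35.2% in 2, 37.9% in 1 and 20% in none. Sqstm1, Nbr1, Atg12, Gla, Neu1, Lamp1, Atp6v0d1 and Atp6v1h were higher with SSTC3 and overexpression and lower with knockdown, as were 1.29% of those genes. Another 8, Map1lc3b, Gabarapl1, Wipi1, Wipi2, Ctsb, Ctsl, Cd63 and Tfe3, were higher with SSTC3, lower with knockdown and did not pass in overexpression, as were 7.6% of those genes. Not all of these calls held whichever library was left out. Among the first 8, the overexpression calls of Nbr1, Atg12, Gla, Neu1 and Lamp1 and the knockdown call of Lamp1 did not. Among the second 8, the SSTC3 calls of Gabarapl1, Cd63 and Tfe3 and the knockdown call of Gabarapl1 did not. These 16 of 40 that were higher with SSTC3 and lower with knockdown compare with 9.81% of the 12431 genes tested in both. They make up 59.3% of the 27 that rose with SSTC3 and 69.6% of the 23 that fell with knockdown, while the shares over all genes tested in both were 35.6% and 37.3%. The opposite change, lower with SSTC3 and higher with knockdown, was seen for Glb1 alone among the 40, against 11.1% of genes. The comparisons share no library, but the sizes of the 2 effects did not follow each other across the 40 genes (Pearson r = 0.013 across genes, which are not independent replicates). Map1lc3a and Optn, with large SSTC3 changes, lay near 0 by knockdown, and Npc1, with a large knockdown change, lay near 0 with SSTC3.

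**Figure D4:**
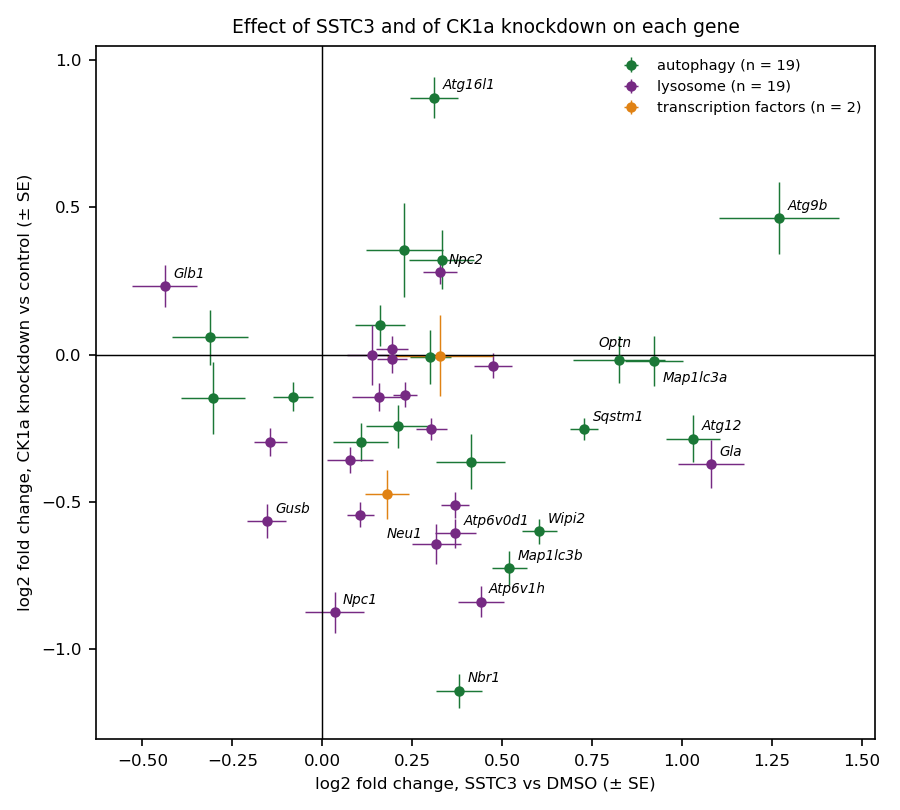
Log2 fold change with SSTC3 (x axis) against that by CK1α knockdown (y axis) for the 40 genes, with SE bars; autophagy genes are green, lysosomal genes purple and the 2 transcription factors orange. Many genes lie in the lower right part (16 passed as higher with SSTC3 and lower with knockdown), but the points do not form a falling line (Pearson r = 0.013).

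The differences between effects were also tested directly in a fit of all 12 libraries. The SSTC3 effect differed from the knockdown effect for 32 of the 40 genes (29 with the SSTC3 effect higher, 3 lower), against 45.1% of 17105 genes tested. Of the 19 lysosomal genes 16 had the higher SSTC3 effect, and of the 19 autophagy genes 12 did, against 23.5% of all genes. The overexpression and knockdown effects differed for 29 of 40 (26 and 3), against 35.1% of genes. The SSTC3 and overexpression effects differed for 21 of 40 (18 and 3), against 32.7% of genes. In this last contrast 12 of 19 autophagy genes had the higher SSTC3 effect, and 6 of 19 lysosomal genes did, against 17.2% of all genes. For the 3 pump subunits no difference between SSTC3 and overexpression passed, with values from −0.11 to 0.15, while each of the 3 differed between SSTC3 and knockdown.

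The other genes of the pathway, 137 in 5 lists, were counted in the same way. By knockdown 24 rose and 64 fell of 132 tested (18.2% and 48.5%, against 28.3% and 26.4% of all genes). By overexpression 21 were higher and 3 lower of 131 (16% and 2.29%, against 5.78% and 7.57%). The count higher by overexpression was smaller with DESeq2 and in the fit of all 12 libraries, as given further on. With SSTC3 42 were higher and 28 lower of 131 (32.1% and 21.4%, near the 27.1% and 26.5% of all genes). The counts were 34 higher and 36 lower when libraries were scaled by their totals alone. Among 39 other autophagy genes SSTC3 gave 11 higher and 13 lower (28.2% and 33.3%, against 27.1% and 26.5% of all genes), and knockdown 8 higher and 19 lower (20.5% and 48.7%, against 28.3% and 26.4%). Tollip, an adaptor that also binds ubiquitin, had 93.2 and 96.1 CPM with SSTC3 against 61.7 and 61.9 CPM with DMSO (0.67 ± 0.06, SE, adjusted p = 2.18e-22), whereas Pik3c3, the lipid kinase of the Beclin 1 complex, had 22.5 and 21.8 CPM with SSTC3 against 35.7 and 34.4 CPM with DMSO (−0.61 ± 0.092, SE, adjusted p = 1.49e-09). Epg5, which tethers autophagosomes to lysosomes, had 26.2 and 27.8 CPM in knockdown libraries against 73.7 and 74.7 CPM in their controls (−1.42 ± 0.078, SE, adjusted p = 8.73e-25). Bnip3l, a receptor for mitochondria, went the other way, with 189.4 and 190.6 CPM in knockdown libraries against 109.4 and 119.7 CPM in their controls (0.76 ± 0.052, SE, adjusted p = 2.36e-20). Its relative Bnip3 had 182.6 and 198.8 CPM in knockdown libraries against 122.9 and 136.9 CPM in their controls (0.59 ± 0.053, SE, adjusted p = 1.04e-14). By knockdown the receptors of the members fell or did not pass, while Bnip3l and Bnip3 rose. Optn, a member that is also a receptor for mitochondria, did not pass.

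Among 38 other hydrolases, knockdown gave 4 higher and 12 lower of 35 tested, SSTC3 8 higher and 3 lower of 34, and overexpression 4 higher and 2 lower of 33. These are 11.4% and 34.3% with knockdown (28.3% and 26.4% of all genes), 23.5% and 8.82% with SSTC3 (27.1% and 26.5%), and 12.1% and 6.06% with overexpression (5.78% and 7.57%), so the share higher with SSTC3 was near that of all genes. Arsa, for arylsulfatase A, had 113.3 and 110.6 CPM in knockdown libraries against 213.7 and 200.8 CPM in their controls (−0.85 ± 0.051, SE, adjusted p = 6.74e-23), with 18.75% of its exon bases shared with another gene. Lipa, for lysosomal acid lipase, rose by knockdown, with 110.7 and 116.2 CPM in knockdown libraries against 79.6 and 78.4 CPM in their controls (0.56 ± 0.059, SE, adjusted p = 1.38e-12). Among 21 other membrane and sorting genes, knockdown gave 7 higher and 11 lower, SSTC3 7 higher and 3 lower, and overexpression 3 higher and none lower. As shares these are 33.3% and 52.4% with knockdown and 33.3% and 14.3% with SSTC3, and 14.3% were higher with overexpression, to be read against the same shares of all genes. Cln3, a lysosomal membrane protein lost in Batten disease, had 10.2 and 10.4 CPM with SSTC3 against 0.821 and 1.36 CPM with DMSO (3.29 ± 0.24, SE, adjusted p = 4.65e-31), from very low levels in DMSO libraries. Grn, for progranulin, had 1016 and 980.6 CPM in knockdown libraries against 1423 and 1381 CPM in their controls (−0.46 ± 0.039, SE, adjusted p = 4.06e-16).

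**Figure D5:**
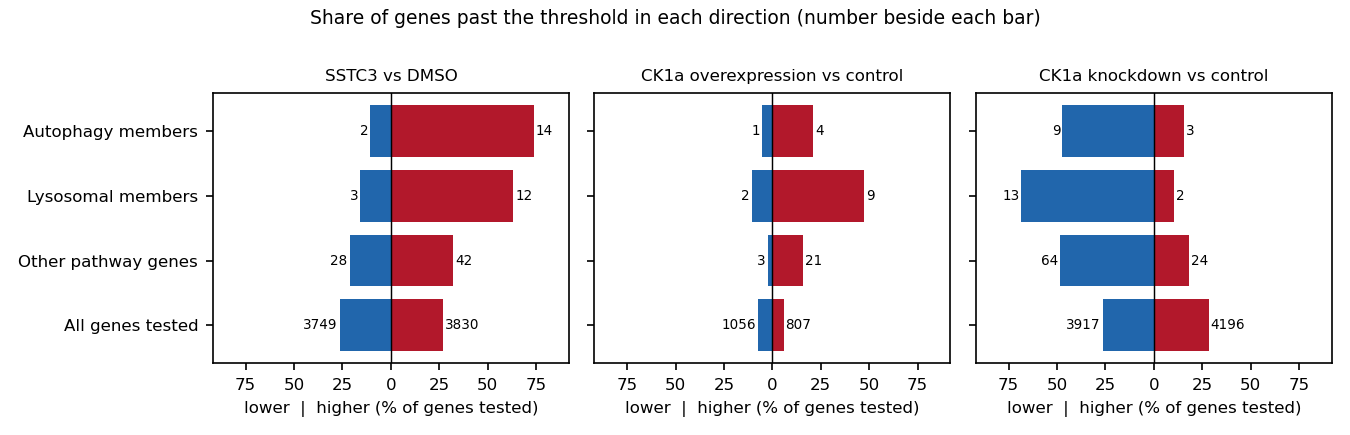
Share of genes (percent of those tested) that passed as higher (red, right) or lower (blue, left) in each comparison, with the number of genes beside each bar, for the 19 autophagy members, the 19 lysosomal members, the 137 other pathway genes and all genes. The members' bars lean right for SSTC3 and left for CK1α knockdown, while the bars for all genes are nearly even.

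Summed over the 40 genes, levels were 4948 and 4979 CPM in SSTC3 libraries against 4223 and 4236 CPM in DMSO libraries. They were 5388 and 5437 CPM in overexpression libraries against 5107 and 5123 CPM in overexpression control libraries, and 8284 and 8323 CPM in knockdown libraries against 10236 and 10050 CPM in knockdown control libraries. Within each set the groups did not overlap. The sets differ in treatment, the SSTC3 set also in its labelled cells and labelled TREX knockout, and the overexpression set also in the features its files list. Differences between sets cannot be told apart from these. Among the 3 control groups, 25 of the 40 genes were highest in the knockdown control, 24 of them with no overlap with the other 2 controls, while 9 were highest in the overexpression control and 6 in DMSO. Of the 11728 genes tested in all 3 comparisons, 30.7% were highest in the knockdown control (27.1% with no overlap), 37.7% in the overexpression control and 31.5% in DMSO. Of the 19 lysosomal genes 15 were highest in the knockdown control, as were 10 of the 19 autophagy genes. Per kilobase of exon, Lamp1 was the highest of the 40 in the SSTC3 and DMSO groups (317.4 and 281.3 CPM per kilobase) and in the overexpression set (226.6 in overexpression and 207 in its control). In the knockdown set Sqstm1 was the highest (392.5 in knockdown and 479.3 in its control). The lowest was Tfeb in SSTC3 (1.98), Atg14 in both knockdown set groups (2.29 and 1.83) and Atg9b in the other 3 groups (1.23 in overexpression, 2.61 in its control and 1.26 in DMSO).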

How the data were processed

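RNA was measured by sequencing polyadenylated RNA in 12 libraries of mouse cells. The submitters' processing notes name HISAT2, featureCounts and mm10. The sources used here do not give versions, strand setting or annotation release. The deposited files hold the authors' whole-number counts per gene. Files of the overexpression set list 55401 features, 260 without a symbol, and the others 54532, 123 without one; all 40 members had one. The overexpression files hold no counts of mitochondrially encoded genes, which take 1.226% to 1.978% of counts elsewhere. Symbols, exons and positions come from GENCODE M21 (mm10), promoter windows from RefSeq on GRCm38.p6, the same build.

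For each comparison, only its 4 libraries were fitted, with edgeR 4.0.16 in R 4.3.3 (filterByExpr, TMM factors, robust quasi-likelihood F test, no block), with Benjamini-Hochberg adjustment over all genes tested and a threshold of 0.05. The SE is the absolute log2 fold change divided by the square root of F. Differences between effects are contrasts in a fit of all 12 libraries. Residual spread was moderated across genes, since each comparison has 2 libraries per group. Levels are CPM of the library total, and per kilobase of exon between genes. The procedure was tested on simulated data. Each pair of replicates differed by more than sampling noise (chi-square per degree of freedom 2.29 to 3.61), so none was counted as a copy.

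The members, the lists of other pathway genes and the alternatives were chosen with earlier results of these data known, so a list's direction is not independent support. In each comparison, library values are given for receptors, Atg8 genes, transcription factors and the called members with the 8 smallest adjusted p-values in each direction or the largest changes. From each other list, up to 3 called genes per direction with the smallest adjusted p-values may be named. Library values of other members were added after their values were seen. Alternatives were RLE factors, library totals, removal of mitochondrial genes, 2 other count filters, DESeq2 1.42.0, limma-voom (limma 3.58.1), the 12-library fit, a replicate block and leaving out each library.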

Additional observations from a re-analysis of the deposited data

Results flagged for a closer look

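Differences between the effects of 2 comparisons, tested in the fit of all 12 libraries, passed for 32 of the 40 genes between SSTC3 and knockdown, for 29 between overexpression and knockdown and for 21 between SSTC3 and overexpression, against 45.1%, 35.1% and 32.7% of all genes. The genes listed here passed in opposite directions in the comparisons named, with a difference of at least 1 on the log2 scale.

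Between SSTC3 and knockdown, the log2 difference of effects was 1.55 for Nbr1 and 1.48 for Gla. It was 1.34 for Atg12, 1.31 for Atp6v1h, 1.27 for Map1lc3b and 1.23 for Wipi2. For Sqstm1 and for Atp6v0d1 it was 1.01 each. All 8 were higher with SSTC3 and lower with knockdown, and they come from the receptors, the Atg8 family, initiation, conjugation, the glycosidases and the proton pump.

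Between overexpression and knockdown, the difference was 1.32 for Nbr1, 1.25 for Neu1, 1.16 for Atp6v1h and 1.12 for Npc1. Atg9b had the opposite sign there, at −1.53, being lower in overexpression libraries and higher in knockdown libraries. Between SSTC3 and overexpression, Atg9b stood apart with a difference of 2.37, at levels of 4.3 to 11.9 CPM in those 2 sets. The SSTC3 set is labelled BMDM with a TREX knockout and the other 2 sets MEF, and each set has its own controls. A difference between effects therefore cannot be told apart from a difference between cell sets.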

How the results depend on the processing

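No called value of a member changed sign under any alternative run, and limma-voom, RLE factors, library totals, other filters and removal of mitochondrial genes kept each count of called members within 1.5 times its main value. The overexpression comparison depended most on the test: with DESeq2, 5 members were higher and 1 lower (13 and 3 with edgeR), 6 other pathway genes were higher (21 with edgeR) and 529 genes were called in all (1863 with edgeR), with no DESeq2 adjusted p for 3 of the 13 (Atg14, Gla and Neu1) and 1 of the 3 (Atg9b). In the fit of all 12 libraries, 9 other pathway genes were higher there and 1188 genes were called. That fit also lost Nbr1 (adjusted p = 0.055) in the overexpression comparison. With SSTC3, library totals lost Gabarapl1, Becn1, Cd63 and Tfe3, and no filter lost the first 3 of these. Library totals also added Tax1bp1 as lower (−0.14, adjusted p = 0.0262). Removal of mitochondrial genes and the filter of at least 1 CPM in 2 libraries each added Tfeb as higher (adjusted p = 0.0495 and 0.0438). DESeq2 gave 22 higher and 4 lower members for SSTC3, and 4 and 19 for knockdown.

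Leaving out each library in turn, SSTC3 gave 23 to 25 higher and 3 to 5 lower members, overexpression 8 to 10 and 2 to 3, and knockdown 3 to 6 and 19 to 23. Other pathway genes higher with overexpression numbered 10 to 15, and all genes called there 1065 to 1478, with the lowest values, and the lowest of 8 members, without overexpression control replicate 1. Those counts also moved by over 1.5 times without CK1α overexpression replicate 1 (13 other pathway genes) and without overexpression control replicate 2 (1220 genes). The lowest count of members lower with SSTC3 came without SSTC3 replicate 1, and that of members higher with knockdown without CK1α knockdown replicate 2. Calls that held whichever library was left out were 22 of 27 higher (SSTC3), 3 of 5 lower (SSTC3), 6 of 13 higher (overexpression), 2 of 3 lower (overexpression), 3 of 5 higher (knockdown), 19 of 23 lower (knockdown).

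Deviations of libraries with the same replicate number had correlations of −0.016 (SSTC3), −0.0096 (overexpression) and 0.0050 (knockdown). With 2 libraries per group, these values cannot tell whether libraries with the same number shared a culture or day. With the number as a block, the members called were 26 higher and 5 lower, 13 and 3, and 5 and 23 in the 3 comparisons, and 7303, 1768 and 8066 genes were called. Without the 9 members that share over 10% of their exon bases with other genes, an alternative chosen after seeing the data, counts over the other 31 were 20 higher and 4 lower, 11 and 3, and 5 and 18.

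Summed CPM of the 40 genes depended on scaling. With mitochondrial genes taken out of the totals the group means were 5060 for SSTC3, 4298 for DMSO and 8421 for knockdown (4963, 4229 and 8304 as reported). With TMM factors over all 12 libraries they were 5092 for SSTC3, 4198 for DMSO, 4878 for overexpression (5412 as reported), 4666 for its control (5115), 9125 for knockdown and 11160 for its control (10143). The order of the groups within each set held, but SSTC3 lay above overexpression with these factors and below it with library totals. With 2 libraries per group, changes of genes with low counts carried wide errors, as for Tfeb with SSTC3 (0.33 ± 0.15, SE).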
